A study of Homo sapiens with 6 samples.

Results

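The miR-7 arms are the mature microRNAs (miRs) cut from the human miR-7 hairpins. They comprise 3 of the 2588 miR names in the count table, hsa-miR-7-5p, hsa-miR-7-1-3p and hsa-miR-7-2-3p, and were taken by name. The family was selected on the read counts, because the RPL24 KD against NC contrast of hsa-miR-7-5p was known beforehand, so all values of that contrast are given here as a description, with no p-value. Of the 3 arms, 2 had reads and passed the filter on low counts (edgeR's filterByExpr, minimum count 10), as did 360 of all miRs. hsa-miR-7-2-3p had 0 counts in every library.

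Small RNA was sequenced from HEK293T, a human embryonic kidney cell line, in 3 samples after knockdown of ribosomal protein L24 (RPL24 KD) and 3 negative controls (NC). RPL24 KD cells had received siPOOLs against RPL24 and NC cells non-targeting siPOOLs, at 50 nM in both groups, and RNA was taken after 72 h, which one field of the labels calls day 72. The protocol also describes, for both groups, a miR-608 plasmid transfected 48 h after the siPOOLs and 24 h before harvest. The paper presents the sequencing as a knockdown experiment of its own and reports that miR-608 was not found in it. Use of this plasmid in the samples analysed here is therefore uncertain. The RPL24 mRNA is not captured by such libraries, so its depletion was not checked here. Nothing states that the samples of a group came from separate cultures, so that the spread between them may be technical. The libraries held between 398721 and 611745 counts. Each group has 1 library whose number in the count table matches none of the labels, and it is called unnumbered here. Levels are given in CPM, counts scaled to a common normalized library total. The 6 miRs listed as abundant in HEK293T cells summed to 244884 to 253503 CPM after RPL24 KD and 227171 to 240980 CPM in NC. This list was made with earlier results of these data known, so it is no independent check of the cell line. The liver marker miR-122-5p had at most 2 counts in a library. Of the 5 blood markers, 2 (miR-223-3p and miR-150-5p) had 0 counts and the others at most 4 in a library. The muscle marker miR-1-3p had between 104 and 203 counts, and the epithelial marker miR-200c-3p between 22 and 42. The summed level of the 3 listed muscle markers lay between 244 and 272 CPM after RPL24 KD and between 321 and 366 CPM in NC. That of the 2 epithelial markers lay between 62.5 and 76.6 CPM after RPL24 KD and between 52.3 and 62.4 CPM in NC, and that of the 3 neuron markers between 26376 and 27146 CPM and between 22244 and 25733 CPM. The part of these marker levels in the results below was not tested.

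A miR hairpin is excised from its primary transcript in the nucleus by the microprocessor (DROSHA with DGCR8), trimmed by Dicer in the cytoplasm, and yields a duplex of a 5p and a 3p arm. Usually 1 arm is kept in an Argonaute protein as the guide, and the other, the passenger, is degraded. miR-7 is among the oldest animal miRs and is best known from neurons, the pituitary and pancreatic islets. In mammalian brain it is bound by the circular RNA CDR1as, which carries many miR-7 sites, and the long non-coding RNA Cyrano directs its decay. Its 5p arm can come from any of 3 hairpins, whereas the 3p arms tell the hairpins apart.

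The mature sequences are shown first, since they set what the counts can distinguish. They are from RefSeq (GRCh38.p14), which held all 3 names, and are written 5′ to 3′ with the seed, bases 2 to 8, in capitals.
hsa-miR-7-5p: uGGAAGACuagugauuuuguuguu
hsa-miR-7-1-3p: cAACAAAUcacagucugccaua
hsa-miR-7-2-3p: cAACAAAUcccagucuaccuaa
The 5p arm is 24 nt long and both 3p arms 22 nt. The 2 passenger arms have the same seed and differ at 4 positions, counted from the 5′ end (A10C, G17A, A20U and U21A, with the base of hsa-miR-7-1-3p first). Of the 2281 miR names of the table that had a RefSeq sequence, no other shared the seed of hsa-miR-7-5p, and the target site that pairs with its bases 2 to 8 reads GUCUUCC. Likewise, no name other than the 2 passenger arms carried AACAAAU at bases 2 to 8.

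MIR7-1, MIR7-2 and MIR7-3 all carry the 5p arm, so that a read of hsa-miR-7-5p cannot be assigned to 1 of them. The hairpins of MIR7-2 and MIR7-3 show this. Capitals mark stretches identical to the mature sequences above. The RefSeq loci used here place the 5p arm in MIR7-1 and MIR7-3, and list only hsa-miR-7-2-3p in MIR7-2.
MIR7-2: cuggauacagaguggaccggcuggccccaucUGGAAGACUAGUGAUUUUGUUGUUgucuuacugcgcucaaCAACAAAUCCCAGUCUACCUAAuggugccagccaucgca
MIR7-3: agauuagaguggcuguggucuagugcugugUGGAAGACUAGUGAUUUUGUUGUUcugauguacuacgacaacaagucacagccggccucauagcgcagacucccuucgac
Each of these hairpins is 110 nt long, and the 5p arm occupies bases 32 to 55 of MIR7-2 and 31 to 54 of MIR7-3. The count table has no name for a 3p arm of MIR7-3. In that hairpin, the stretch most like hsa-miR-7-1-3p (bases caacaagucacagccggccuca, chromosome 19 from 4770738 to 4770759) is identical to it at 17 of 22 positions, and 1 of the 5 differences, A7G, lies in the seed. Passenger reads of MIR7-3 therefore have no row of their own.

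The 3 hairpins lie on different chromosomes in the GENCODE 29 annotation of GRCh38. MIR7-1 lies on the minus strand of chromosome 9, from 83969748 to 83969857, inside HNRNPK, which encodes an abundant RNA-binding protein. It is intronic in 6 of the 11 annotated HNRNPK transcripts, in intron 16 in 3 of these, and overlaps an exon in 1. On chromosome 15, MIR7-2 spans 88611825 to 88611934 of the plus strand, where the only other annotated gene is that of another miR, MIR3529, on the opposite strand. On chromosome 19, MIR7-3 spans 4770670 to 4770779 of the plus strand and is intronic in 9 of the 10 transcripts of the long non-coding RNA MIR7-3HG.

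hsa-miR-7-5p was among the most abundant miRs of these cells. Its share of all counts was 6.72% ± 0.318 (SD, n = 3) in NC and 8.07% ± 0.222 (SD, n = 3) in the RPL24 KD libraries. By number of counts its rank was 3 in each of the RPL24 KD libraries, 3 in the unnumbered NC library and 4 in the other NC libraries. Over all 6 libraries, it stood below miR-148a-3p and miR-92a-3p and above miR-10a-5p, and the 10 most abundant miRs together took between 54.4% and 55.9% of the counts of a library.

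In the RPL24 KD libraries, replicate 1 held 44073 counts of hsa-miR-7-5p (7.89% of the library, 95% Wilson interval 7.82 to 7.96), replicate 2 held 48980 (8.01%, 7.94 to 8.07) and the unnumbered library 33859 (8.32%, 8.24 to 8.41). In the NC libraries, replicate 1 held 35894 counts (6.35%, 6.29 to 6.42), replicate 2 held 27377 (6.87%, 6.79 to 6.95) and the unnumbered library 35583 (6.93%, lower bound 6.86). Each RPL24 KD share was above each NC share. Only counting error enters these intervals, which take each read as a separate molecule. Amplified reads do not stand for separate molecules, so the intervals may be too narrow. Within a group, the shares had a spread above that of counting alone, with an SD 5.93 times the counting SD after RPL24 KD and 8.92 times in NC.

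After normalization of the library sizes by the trimmed mean of M-values (TMM), the mean level of hsa-miR-7-5p was 66053 ± 3012 CPM (SD, n = 3) in NC and 82087 ± 2220 CPM (SD, n = 3) in RPL24 KD cells. In single libraries it had 80381, 81283 and 84598 CPM after RPL24 KD, and 62621, 68257 and 67281 CPM in NC. The lowest RPL24 KD library was thus above the highest NC library, a separation in this direction that 14.7% of the tested miRs showed. Among the 10 most abundant miRs, miR-92a-3p, miR-378a-3p and miR-30d-5p showed it too, and the rest did not. The log2 fold change was 0.31 (standard error 0.047, edgeR quasi-likelihood fit), which corresponds to a level 24.3% higher. The arm was called in this fit at an adjusted p under 0.05, as were 5.00% of the 360 miRs tested, and 3.33% were called and higher after RPL24 KD. Because the family was chosen for this contrast, the call carries no independent weight. The study's own DESeq2 comparison of its sequencing data lists hsa-miR-7-5p as increased, with a log2 fold change of 0.33. It also lists a quantitative PCR assay for miR-7-5p, but does not name this arm among the miRs whose changes were significant by that method. In bulk libraries of this kind a value is a share of the sequenced small RNA, so that more of this arm per cell, less of other miRs and a different mix of cells cannot be told apart.

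**Figure D1:**
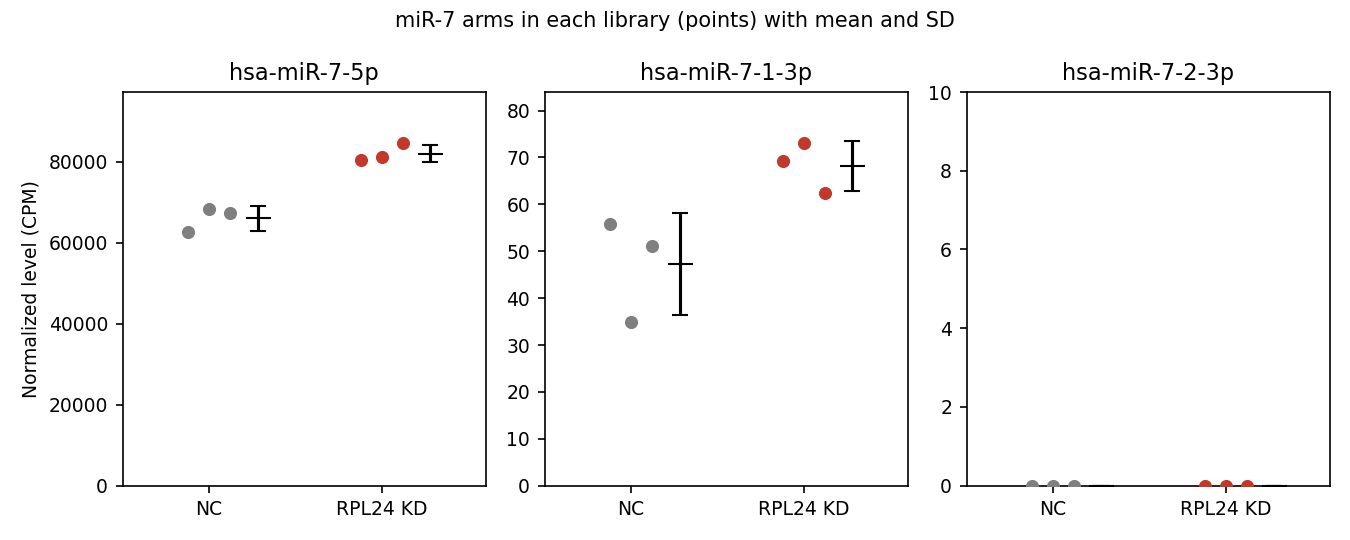
Normalized level of each miR-7 arm, in CPM on the vertical axis, in the 3 NC and the 3 RPL24 KD libraries (points), with the mean and SD of each group as black lines beside the points. The RPL24 KD points lie above the NC points for hsa-miR-7-5p (80381 to 84598 against 62621 to 68257 CPM) and for hsa-miR-7-1-3p (62.5 to 73.0 against 34.9 to 55.8 CPM), and all points of hsa-miR-7-2-3p lie at 0.

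The fold change was small beside those of less abundant miRs. Of the tested miRs, 37 had a larger log2 fold change than hsa-miR-7-5p and 322 a smaller one, with a median of -0.0084 over all 360. In amount the order was different. The mean level of hsa-miR-7-5p was 16034 CPM higher after RPL24 KD, the largest difference among the 174 tested miRs with a higher mean, and this was 27.8% of their summed differences of 57705 CPM. The next largest was that of miR-92a-3p, a guide of the miR-17-92 cluster, with 10673 CPM. The summed differences of the miRs with a lower mean were 24094 CPM, so that gains and losses were not balanced on this scale. The TMM factors that scale the library totals were 0.982 to 0.985 after RPL24 KD and 1.006 to 1.030 in NC. Summed CPM therefore differ between the groups by construction.

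**Figure D2:**
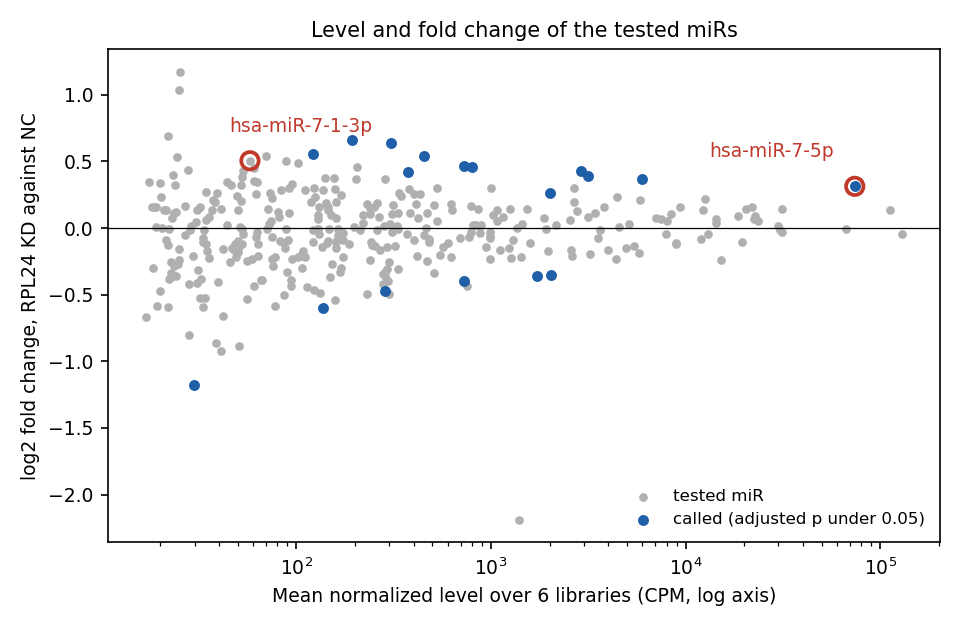
Log2 fold change between RPL24 KD and NC (vertical axis, positive where RPL24 KD is higher) by mean level in CPM over the 6 libraries (horizontal log axis) for the 360 tested miRs, with the called miRs in blue and the miR-7 arms circled in red. hsa-miR-7-5p lies far to the right at 0.31, and hsa-miR-7-1-3p lies among the scarce miRs at 0.51 and was not called.

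Set beside the other abundant miRs, hsa-miR-7-5p was the 1 of the 10 most abundant that was called, and 3 of the 10 had an unadjusted p under 0.05 (edgeR), where 18 and 85 of all 360 tested miRs did. In NC its level of 66053 ± 3012 CPM (SD, n = 3) and that of miR-10a-5p, a miR of the HOXB cluster, with 67233 ± 1480 CPM (SD, n = 3), differed by less than the spread between libraries. After RPL24 KD hsa-miR-7-5p stood at 82087 ± 2220 CPM (SD, n = 3) and miR-10a-5p at 67023 ± 1782 CPM (SD, n = 3), so these neighbours in rank were apart in that group. The 2 more abundant miRs stayed above both: in NC, miR-148a-3p had 131598 ± 13235 CPM (SD, n = 3) and miR-92a-3p 107310 ± 5538 CPM (SD, n = 3). In RPL24 KD cells they had 127321 ± 4896 CPM (SD, n = 3) and 117983 ± 4160 CPM (SD, n = 3). Neither was called. Levels of different miRs are compared here as read counts, which also depend on how well each sequence is captured in the library.

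The passenger arm hsa-miR-7-1-3p, which marks the HNRNPK hairpin, was scarce. It had 38, 44 and 25 counts in RPL24 KD replicates 1 and 2 and the unnumbered library, and 32, 14 and 27 counts in the corresponding NC libraries. Normalized, these were 69.3, 73.0 and 62.5 CPM after RPL24 KD and 55.8, 34.9 and 51.1 CPM in NC. The RPL24 KD libraries all lay above the NC libraries, the same separation as above. The lowest value, of NC replicate 2, was from the library with the fewest counts in all. The mean was 47.3 ± 11.0 CPM (SD, n = 3) in NC and 68.3 ± 5.35 CPM (SD, n = 3) in RPL24 KD cells, with a log2 fold change of 0.51 (standard error 0.22, edgeR quasi-likelihood fit). It was not called.

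Of the 2 tested miR-7 arms, 1 was thus called, beside 5.00% of all tested miRs. The log2 fold change of hsa-miR-7-1-3p exceeded that of hsa-miR-7-5p by 0.19, with a standard error of 0.22 if the 2 are taken as independent, so the arms were not distinguishable in their fold change at this depth.

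No read was counted for hsa-miR-7-2-3p, the passenger arm of the chromosome 15 hairpin, in RPL24 KD or in NC. A count of 0 allows up to 3 counts, or between 4.98 and 7.50 CPM in a library. Over all 6 libraries, 180 of the 180 passenger reads of both names were those of hsa-miR-7-1-3p (100%, 95% Wilson interval 97.9 to 100), and 3 counts would be 1.67% of them. Reads of the MIR7-3 passenger would not have been listed in either row under an exact match. How many mismatches the alignment allowed was not given in the sources used here.

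The miRs next to MIR7-2 on chromosome 15 were near 0 too. MIR1179 lies 3628 bases away on the same strand, and its product miR-1179 had 0 counts in all libraries. MIR3529 lies on the opposite strand of MIR7-2, from 88611847 to 88611924. Its arm hsa-miR-3529-3p is shown because it is the exact reverse complement of hsa-miR-7-5p over 24 nt.
hsa-miR-3529-3p: aacaacaaaaucacuagucuucca
It had 0 counts in each library, and hsa-miR-3529-5p had 1 count in a single RPL24 KD library. Within 10000 bases of MIR7-1 and of MIR7-3, GENCODE 29 annotates no other miR gene.

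The guide arm far exceeded its passenger in every library. Per count of both passenger arms, there were 1160, 1113 and 1354 counts of hsa-miR-7-5p in the RPL24 KD libraries, and 1122, 1956 and 1318 in the NC libraries. The groups overlapped. The mean ratio was 1465 ± 436 (SD, n = 3) in NC and 1209 ± 128 (SD, n = 3) in RPL24 KD cells. The highest ratio was that of NC replicate 2, which rests on 14 passenger counts, and its 95% exact Poisson interval ran from 1165 to 3577. This ratio needs no normalization, because both arms were counted in the same library. The names of the count columns begin with Unique, which is not explained, and if reads matching several places had been left out the shared 5p arm could be undercounted.

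Over the 84 pairs of 5p and 3p arms that were both tested (71 paired by their RefSeq hairpin, 13 by name), hsa-miR-7-5p over hsa-miR-7-1-3p had the largest ratio between arms in either direction, 1254 with counts summed over the 6 libraries (95% exact Poisson interval 1084 to 1460). This rank holds among tested pairs only, since pairs with an arm too scarce to test were left out and can be more uneven. For example, miR-92a-3p had 346108 counts and miR-92a-2-5p had 0, and let-7a-5p had 38642 and let-7a-2-3p had 1. The median size of the log2 ratio over the 84 pairs was 3.58, against 10.29 for miR-7. The closest were miR-222, whose 3p arm exceeded its 5p arm 1192-fold, and miR-20a, with a ratio of 1165 of 5p to 3p (939 to 1465), whose interval overlaps that of miR-7. The 5p arm of miR-7 sums 3 possible hairpins and the 3p arm comes from 1, so the ratio is an upper value for MIR7-1.

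**Figure D3:**
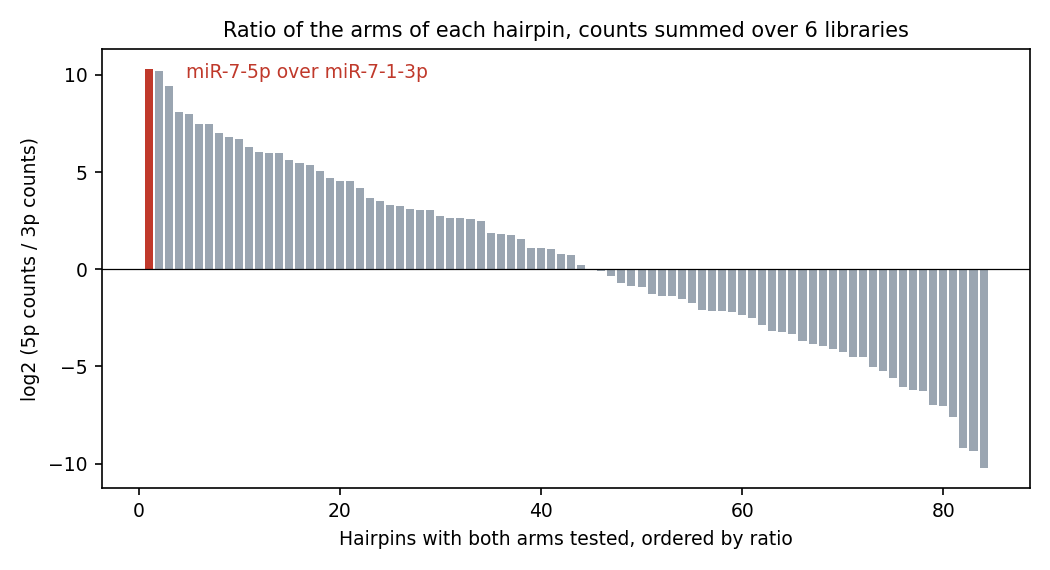
Ratio of 5p to 3p counts, on a log2 scale, for the 84 pairs of arms that were both tested, ordered from highest to lowest, with counts summed over the 6 libraries. The miR-7 bar (red) is the highest at 10.29, next to miR-20a at 10.19.

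Other miRs with several hairpins gave a comparison for the split between passenger arms. The set took shared guide arms with passenger arms under separate names, at least 100 passenger counts, and no more of these than guide counts. It held 6 miRs including miR-7 and was defined after the values were seen. The last condition left out miR-550a and miR-16, whose leading 3p arm, miR-16-2-3p, had 3295 counts beside 47 of miR-16-1-3p and 3290 of miR-16-5p. In 2 of them, miR-7 and miR-92a, the scarcer passenger arm had 0 counts, against 180 counts of hsa-miR-7-1-3p and 591 counts of miR-92a-1-5p. In let-7a and miR-125b the leading passenger arm held 99.9% and 98.5% of the counts. In miR-30c and miR-181a it held 69.2% and 56.4%. Complete or nearly complete dominance of 1 named passenger arm was thus seen in 4 of the 6. These shares count names, not hairpins: the name let-7a-3p carries no hairpin number, and passenger reads of MIR7-3 have no row.

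miR-671-5p directs the cleavage of CDR1as and so belongs to the miR-7 circuit, and miR-671-3p is the other arm of that hairpin. For miR-671-5p, the level was 83.7 ± 31.4 CPM (SD, n = 3) in NC and 67.8 ± 11.7 CPM (SD, n = 3) in RPL24 KD cells (log2 fold change -0.28, standard error 0.27). For miR-671-3p, it was 227 ± 22.4 CPM (SD, n = 3) in NC and 253 ± 22.9 CPM (SD, n = 3) in RPL24 KD cells (log2 fold change 0.15, standard error 0.13). Of these 2 arms, 0 were called by edgeR, DESeq2 or limma and 0 had an unadjusted p under 0.05 in the edgeR fit, beside 18 called miRs and 85 with an unadjusted p under 0.05 among the 360 tested.

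The splicing factor SRSF1 is known to promote the cleavage of pri-miR-7, and its level has also been tied to those of miR-221, miR-222 and miR-29b. Of the 6 arms of these miRs on the list, 5 were tested, 0 were called by edgeR, DESeq2 or limma, and 0 had an unadjusted p under 0.05 in the edgeR fit. Their median log2 fold change was -0.12, where that of all tested miRs was -0.0084. The log2 fold change was -0.01 for miR-221-3p (standard error 0.049) and 0.01 for miR-222-3p (standard error 0.068), so for these abundant guides a change as large as that of hsa-miR-7-5p lay several standard errors away. The scarcer arms miR-29b-3p and miR-222-5p had log2 fold changes of -0.26 (standard error 0.37) and -0.27 (standard error 0.34), too uncertain to compare. miR-29b-1-5p had at most 3 counts in a library and was not tested. SRSF1 itself was not measured here, and its part in these levels was not tested.

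The miRs whose levels ran most like that of hsa-miR-7-5p over the 6 libraries were ranked by the Pearson correlation of log2 CPM, among the 165 other miRs that averaged 100 counts or more. All values were taken from these libraries, with no test. The first was miR-19a-3p of the miR-17-92 cluster (r = 0.976), followed by miR-10b-5p of the HOXD cluster (r = 0.947), miR-25-5p, the passenger arm of the miR-25 hairpin (r = 0.945), miR-196b-5p of the HOXA cluster (r = 0.939) and miR-641 (r = 0.934). All 5 had a positive log2 fold change, between 0.16 and 0.64. These correlations describe 6 libraries in 2 groups and share the library sizes and the contrast. The passenger arm hsa-miR-7-1-3p followed hsa-miR-7-5p less closely (r = 0.634), and was itself most like miR-92a-3p (r = 0.970), let-7a-3p (r = 0.955) and miR-1271-5p (r = 0.936). It had only 14 to 44 counts in a library, below the mean of 100 required of the ranked miRs. Counting error thus weighs more on its correlations than on theirs.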

How the data were processed

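Small RNA libraries of HEK293T cells (3 RPL24 KD, 3 NC) were analysed from the count table. The authors used FastQC (0.11.9 in the submitters' processing notes) for quality control, Flexbar for trimming and miRExpress for alignment to miRBase. The deposited values are raw counts, 1 row for each mature miR, in columns whose names begin with Unique, a word that is not explained. The handling of reads that match more than 1 miR was not given in the sources used here, though miR-365a-3p and miR-365b-3p had equal values. All 6 columns were used. Libraries of 398721 to 611745 counts put the floor of 3 counts at 4.98 to 7.50 CPM on the TMM scale.

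RPL24 KD was compared with NC over all miRs by the edgeR 4.0.16 quasi-likelihood test (R 4.3.3, legacy = FALSE, TMM, filterByExpr with minimum count 10, Benjamini-Hochberg adjustment, threshold 0.05), without a replicate block. Alternatives were fitted with limma 3.58.1 and DESeq2 1.42.0. A standard error is the log2 fold change divided by the root of its F statistic. Scripts were tested on simulated data. The members and lists were chosen with earlier results of these data known. Besides the miR-7 arms, the text names miRs with a shared seed, the 10 most abundant, the most correlated, the lists on miR-671 and SRSF1, the hairpins nearest in arm ratio, and cell type markers. The legacy fit, the numbered libraries without a block, the split of passenger arms, the chromosome 15 neighbours, miR-222 (the hairpin nearest in ratio on the 3p side) and the arms paired by name were added after seeing the data. Sequences are from RefSeq and loci from GENCODE 29 (GRCh38). The table holds names only, so no coordinates were taken from it.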

Additional observations from a re-analysis of the deposited data

How the results depend on the processing

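The family was selected on the RPL24 KD against NC contrast of these libraries, so calls in refits of them carry no independent weight. The log2 fold change of hsa-miR-7-5p stayed positive and past the threshold in 6 of 6 fits without 1 library (0.28 to 0.36), in 9 of 9 other settings (0.27 with total counts to 0.33 with DESeq2) and in 2 of 2 settings added after seeing the data. Leaving it out of the library totals and TMM factors gave 0.30. That of hsa-miR-7-1-3p stayed positive and was called in 0 of 6 fits without 1 library (0.39 without NC replicate 2 to 0.65 without NC replicate 1), 0 of 8 other settings and 0 of 2 added ones. No value could be fitted for hsa-miR-7-2-3p, which had no counts, and none for hsa-miR-7-1-3p under the minimum mean of 100 counts.

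The number of called miRs, 18, was 28 with total counts, 31 without a filter, 34 with robust edgeR, 52 with the replicate block, which could be fitted to the 4 numbered libraries only, and 34 with these libraries and no block, a fit added after seeing the data. It ranged from 4 (without RPL24 KD replicate 2) to 29 (without the unnumbered NC library) and was 7 without RPL24 KD replicate 1. The cause was not tested. In these libraries hsa-miR-7-5p was at 0.30 with and without the block, and hsa-miR-7-1-3p at 0.60 with the replicate block and 0.58 without it. Deviations of same-numbered libraries correlated at -0.14 and 0.10 over 360 miRs, and the labels tie them by number only. With the other most abundant miRs left out of the total, the share of hsa-miR-7-5p was 15.4% after RPL24 KD and 12.9% in NC. The passenger arms are limited by depth.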

Other observations

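The first base differed between the miR-7 arms, U in hsa-miR-7-5p and C in both passenger arms. Of the 71 hairpins with both arms tested and both in the RefSeq table, 16 shared this combination, a U at the start of the higher arm and a C at the start of the lower. The higher arm began with U in 39 hairpins and the lower arm in 13.

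When the match was shortened to bases 2 to 7, a choice made after seeing the seeds, 1 more name joined hsa-miR-7-5p, miR-6077, with 0 counts in every library. The passenger arms were joined by miR-5688, with 0 counts, and miR-495-3p, with 2 counts in NC and 0 after RPL24 KD. Among the names with a RefSeq sequence, all counts with bases 2 to 7 of hsa-miR-7-5p were thus its own.

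Among the markers of cells known for miR-7, the islet and pituitary marker miR-375 had between 56 and 110 counts in a library and a log2 fold change of -0.15 (standard error 0.16, not called in the edgeR fit). Of the neuron markers, miR-124-3p had 1 count in all RPL24 KD libraries and 15 in all NC libraries, while miR-9-5p had between 2053 and 3123 counts in a library and a log2 fold change of 0.03 (standard error 0.065). miR-128-3p had between 8133 and 13234 counts and a log2 fold change of 0.14 (standard error 0.065), with all RPL24 KD libraries above the NC libraries, and was not called in the edgeR fit.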
